A study of Mus musculus with 6 samples.

Results

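The 10 genes described here carry dietary fat from the gut lumen into chylomicrons. They were taken by symbol from a table of gene counts: Cd36, Fabp1 and Fabp2 for fatty acid uptake and binding, Mogat2 and Dgat1 for triglyceride resynthesis, Mttp and Apob for particle assembly, and Apoa1, Apoa4 and Apoc3 as surface apolipoproteins. They are 10 of 55335 genes in the table, and all 10 were among the 14107 genes with enough counts to be tested. RNA of intestinal tissue was sequenced from 3 Trmt6-/- mice and 3 wild-type (WT) mice. All 6 mice had colitis induced with DSS (dextran sulfate sodium, given to injure the gut epithelium), and no library of an untreated animal is among them. TRMT6 is the partner subunit of the TRMT61A methyltransferase, which places 1-methyladenosine on tRNA. The labels do not give strain, age, sex, DSS dose, the type of Trmt6 allele or the gut segment. Libraries are called by their column names, KO72, KO73 and KO75 for Trmt6-/- mice and WT185, WT186 and WT187 for WT mice, and values within a group are always in that order.

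Fat leaves the lumen as fatty acids and monoacylglycerol. In the enterocyte, small binding proteins hold the fatty acids, acyltransferases at the endoplasmic reticulum rebuild triglyceride, and the microsomal triglyceride transfer protein loads it onto apolipoprotein B. The particle gains further apolipoproteins and leaves through the Golgi into lymph. The capacity for this is highest in the proximal small intestine and declines towards the ileum, so the expression of many of these genes varies along the gut.

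The targeted gene was read first. Trmt6 had 39.8, 34.2 and 36.2 CPM (counts normalised to library size) in the libraries labelled Trmt6-/-, against 30.9, 18.7 and 23.1 CPM in the WT libraries. The log2 fold change was 0.60 (SE 0.21, edgeR adjusted p = 0.335), so Trmt6 RNA stood at or above the WT level. The type of allele is not given, so the RNA level cannot decide whether the label holds. With the position index described further on as covariate, the log2 fold change of Trmt6 was 0.26 (edgeR adjusted p = 0.635). Gene-level counts cannot show which exons the reads came from. Library sizes for CPM were scaled by TMM, a method that sets most genes level between libraries. Total counts per library were 15213972 to 16972758. The tissue label was also checked: enterocyte markers summed to 14225 to 22816 CPM in the libraries labelled Trmt6-/- and 10365 to 29607 CPM in WT, with 10 of 10 markers above 1 CPM. The colon markers Hoxb13, Hoxd10 and Hoxd13 were at 0 in all 6 libraries, and the 5 smooth muscle markers summed to 2.03 to 2.44 CPM in the libraries labelled Trmt6-/- and 0.782 to 1.43 CPM in WT. In bulk tissue, fewer cells of a type and less RNA per cell cannot be told apart.

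Promoter windows were in the RefSeq table (GRCm38.p6) for 7 of the 10 genes, from 250 bases before to 50 after the annotated start. Shown are the pair with a match to the HNF4 core, Fabp1 for its matches to several motifs, and Mttp for its overlap with a neighbouring gene, and the capitals mark the matches. The Cd36 and Apob windows, with 1 match each, and the Apoa1 window, with none, are not shown. In the Apoa4 window (chr9:46240594-46240893, plus strand) and the Fabp2 window (chr3:122894822-122895121, plus strand) they mark the core CAAAGTNCA bound by HNF4, a nuclear receptor of gut and liver, which in Fabp2 stands as its reverse complement TGCACTTTG. In Fabp1 (chr6:71199629-71199928, plus strand) they mark, in order, the half-site GTTAAT of HNF1, a homeodomain factor, TGACCT as the reverse complement of the nuclear receptor half-site AGGTCA, the TATA box TATAAA, and TGACCT again. In Mttp (chr3:138143369-138143668, minus strand) they mark ACGTCA, a half-site of the cyclic AMP response element.
Apoa4: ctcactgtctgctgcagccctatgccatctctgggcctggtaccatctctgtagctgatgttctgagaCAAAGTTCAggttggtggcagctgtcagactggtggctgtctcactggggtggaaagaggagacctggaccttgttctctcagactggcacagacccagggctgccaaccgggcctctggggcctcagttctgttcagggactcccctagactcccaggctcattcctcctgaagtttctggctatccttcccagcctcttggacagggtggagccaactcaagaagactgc
Fabp2: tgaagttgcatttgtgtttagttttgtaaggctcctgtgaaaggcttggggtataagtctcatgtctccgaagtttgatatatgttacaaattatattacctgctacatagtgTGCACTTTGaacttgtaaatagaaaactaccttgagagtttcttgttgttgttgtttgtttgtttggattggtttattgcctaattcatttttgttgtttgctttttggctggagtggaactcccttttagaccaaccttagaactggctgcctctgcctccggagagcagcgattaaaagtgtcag
Fabp1: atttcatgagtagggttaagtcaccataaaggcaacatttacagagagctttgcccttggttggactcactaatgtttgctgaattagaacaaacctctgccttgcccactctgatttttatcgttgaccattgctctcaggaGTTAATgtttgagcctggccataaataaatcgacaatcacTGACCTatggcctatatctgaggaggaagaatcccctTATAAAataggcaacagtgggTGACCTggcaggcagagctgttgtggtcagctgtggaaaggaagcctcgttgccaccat
Mttp: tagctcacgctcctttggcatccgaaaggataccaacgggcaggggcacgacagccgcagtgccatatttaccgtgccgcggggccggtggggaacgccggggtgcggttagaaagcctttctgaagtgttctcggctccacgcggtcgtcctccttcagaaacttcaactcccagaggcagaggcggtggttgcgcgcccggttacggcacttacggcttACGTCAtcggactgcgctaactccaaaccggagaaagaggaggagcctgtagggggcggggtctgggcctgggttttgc
Both strands were searched, and no match overlapped another. The HNF4 core stood in 2 of 7 windows of these genes and in 1.41% of all 32851 windows. AGGTCA was in 2 of 7 (Cd36 and Fabp1) against 16.3% of all windows, TATAAA in 2 of 7 (Fabp1 and Apob) against 13.6%, GTTAAT in 1 of 7 against 7.10%, ACGTCA in 1 of 7 against 7.51%, and the GATA motif AGATAA in 0 of 7 against 11.2%. A match is a description of letters and not a binding site. The whole Apoa4 window lies inside Gm47528 and the whole Fabp2 window inside 4933405D12Rik, both genes on the opposite strand, and 221 bases of the Mttp window lie inside Trmt10a, a tRNA methyltransferase gene that runs the other way.

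None of the 10 genes passed the test between the libraries labelled Trmt6-/- and WT. Over all genes, 6 of 14107 were called at an adjusted p below 0.05, or 0.0425%. At an unadjusted p below 0.05, 1 of the 10 genes (Apoc3, lower) stood beside 12.1% of all genes in either direction and 5.94% lower. DESeq2 and limma-voom called 0 of the 10, and DESeq2 called 4.49% of all genes. Of the 10 log2 fold changes, 5 were above 0 and 5 below 0, with a median of 0.03 against -0.03 for all genes tested. The 2 groups overlapped in all 10 genes, whereas 18.7% of all genes had groups without overlap, 9.7% higher and 9.03% lower. The 95% interval reached more than 1 on the log2 scale to each side of the estimate for every gene but Mogat2 and Dgat1.

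**Figure D1:**
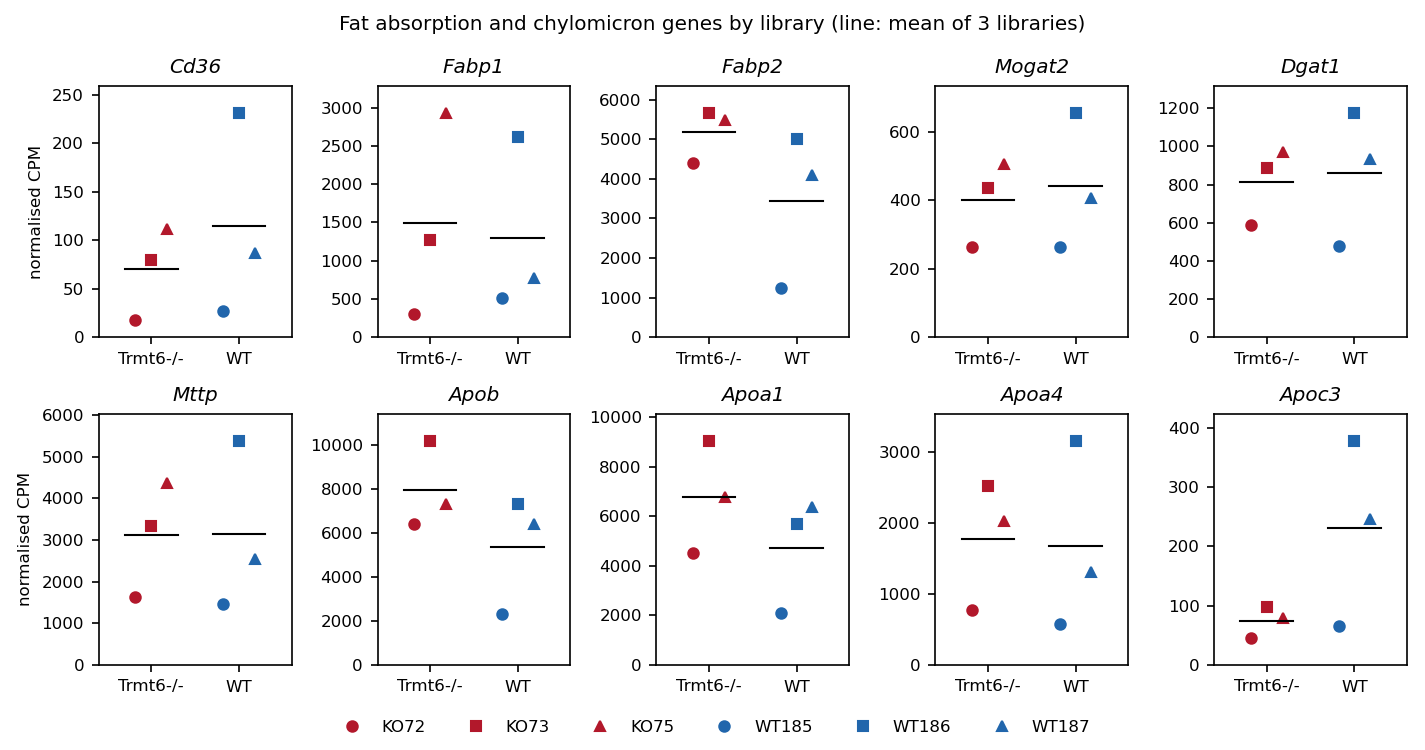
TMM-scaled CPM (y axis) of the 10 genes, 1 panel a gene, with 1 symbol a library and a line at each group mean, the libraries labelled Trmt6-/- on the left and WT on the right. Each gene's 2 groups overlap, and the lowest library of each group is KO72 or WT185 in every panel.

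Uptake and binding came first. Cd36 encodes a fatty acid translocase of the brush border (ENSMUSG00000002944.15, chromosome 5, 17781690 to 17888801, minus strand, mm10). It had 17.9, 80.1 and 111 CPM in the libraries labelled Trmt6-/-, against 27.3, 231 and 86.9 CPM in WT. The lowest library of each group was several times below the other two, and the groups overlapped. The means were 69.8 ± 47.6 CPM in the libraries labelled Trmt6-/- and 115 ± 105 CPM in WT (SD, n = 3 each). The log2 fold change of -0.72 had a 95% interval of -2.75 to 1.31 (SE 0.86, edgeR adjusted p = 0.813).

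Fabp1, the liver-type fatty acid-binding protein of the enterocyte cytosol (ENSMUSG00000054422.7, chromosome 6, 71199827 to 71205023, plus strand), had 297, 1266 and 2931 CPM in the libraries labelled Trmt6-/-, against 511, 2616 and 769 CPM in WT. KO75 and WT186 were high and KO72 and WT185 low. Its log2 fold change was 0.21 (SE 0.89, 95% interval -1.91 to 2.32, edgeR adjusted p = 0.960). Fabp2, the intestinal-type binding protein (ENSMUSG00000023057.5, chromosome 3, 122895072 to 122899506, plus strand), had 4415, 5669 and 5484 CPM in the libraries labelled Trmt6-/-, against 1237, 5007 and 4104 CPM in WT. Only WT185 lay far below the rest, and KO72 stood between WT187 and WT186. Its log2 fold change was 0.59 (SE 0.52, 95% interval -0.65 to 1.83, edgeR adjusted p = 0.738). The pair of binding proteins thus varied unequally: highest over lowest library was 9.88 for Fabp1 and 4.58 for Fabp2.

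The resynthesis genes varied least between libraries. Mogat2, which joins a fatty acid to monoacylglycerol (ENSMUSG00000052396.7, chromosome 7, 99219084 to 99238619, minus strand), had 263, 435 and 505 CPM in the libraries labelled Trmt6-/-, against 263, 656 and 406 CPM in WT. The lowest libraries of both groups were level, and the log2 fold change was -0.14 (SE 0.39, 95% interval -1.06 to 0.78, edgeR adjusted p = 0.932). Dgat1, which adds the last fatty acid of triglyceride (ENSMUSG00000022555.12, chromosome 15, 76502015 to 76511953, minus strand), had 587, 885 and 973 CPM in the libraries labelled Trmt6-/-, against 479, 1176 and 935 CPM in WT. WT libraries were both the lowest and the highest of the 6. Its log2 fold change was -0.08 (SE 0.37, 95% interval -0.97 to 0.81, edgeR adjusted p = 0.961). Highest over lowest library was 2.49 for Mogat2 and 2.45 for Dgat1.

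Assembly rests on Mttp and Apob. Mttp, the lipid transfer subunit (ENSMUSG00000028158.14, chromosome 3, 138089854 to 138144968, minus strand), had 1632, 3346 and 4361 CPM in the libraries labelled Trmt6-/-, against 1471, 5390.0 and 2555 CPM in WT. WT186 was the highest library and WT185 the lowest, with the libraries labelled Trmt6-/- between them. Its log2 fold change was -0.01 (SE 0.57, 95% interval -1.37 to 1.34, edgeR adjusted p = 0.997), and its sign turned under upper-quartile scaling, with no filter on low counts and in limma-voom. Apob, the scaffold protein of the particle (ENSMUSG00000020609.14, chromosome 12, 7977648 to 8016835, plus strand), had 6425, 10204 and 7302 CPM in the libraries labelled Trmt6-/-, against 2294, 7319.6 and 6432 CPM in WT. KO73 was above all others and WT185 below all others, but KO72 and KO75 lay within the WT range. For Apob the log2 fold change was 0.58 (SE 0.51, 95% interval -0.62 to 1.78, edgeR adjusted p = 0.733). Of the Mttp exon bases, 9.49% also belong to Gm43691 or Trmt10a, and of the Mogat2 exon bases 3.00% belong to Gm45012. Counting took no account of strand and left out reads over 2 genes, so those stretches are uncertain.

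Apoa1, Apoc3 and Apoa4 lie side by side on chromosome 9, with 2466 bases between Apoa1 and Apoc3 and 5059 between Apoc3 and Apoa4. Apoa1, the main protein of high-density lipoprotein and also carried on chylomicrons (ENSMUSG00000032083.8, 46228580 to 46230466, plus strand), had 4531, 9045 and 6767 CPM in the libraries labelled Trmt6-/-, against 2082, 5699 and 6350.1 CPM in WT. KO73 and KO75 were the highest of the 6 and KO72 was below WT186 and WT187. For Apoa1 it was 0.53 on the log2 scale (SE 0.51, 95% interval -0.69 to 1.74, edgeR adjusted p = 0.765).

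Apoa4, an apolipoprotein made by enterocytes in response to fat (ENSMUSG00000032080.6, 46240696 to 46243459, plus strand), had 767, 2508 and 2029 CPM in the libraries labelled Trmt6-/-, against 569, 3153 and 1302 CPM in WT. The groups overlapped throughout their range, and the log2 fold change was 0.08 (SE 0.68, 95% interval -1.54 to 1.70, edgeR adjusted p = 0.980). Of its 1815 exon bases, 1266 (69.8%) are shared with Gm47528 and Gm10680, so its counted level is uncertain. Gm47528 had 20.9, 33.9 and 53.8 CPM in the libraries labelled Trmt6-/-, against 3.60, 42.6 and 40.0 CPM in WT. Adding its counts to those of Apoa4 left the log2 fold change at 0.08. With Gm47528 so low beside Apoa4, the sum could hardly move the estimate. Reads over both genes were in neither count, so the sum does not settle the level of Apoa4.

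Apoc3 encodes an inhibitor of lipoprotein lipase and of remnant uptake (ENSMUSG00000032081.10, 46232933 to 46235636, minus strand). It had 44.6, 97.6 and 78.6 CPM in the libraries labelled Trmt6-/-, against 66.1, 379 and 246 CPM in WT. The means were 73.6 ± 26.8 CPM in the libraries labelled Trmt6-/- and 230.4 ± 157 CPM in WT (SD, n = 3 each). KO73 and KO75 were above WT185, so the groups overlapped. The log2 fold change of -1.65 was the most negative of the 10 genes (SE 0.61, 95% interval -3.09 to -0.20). It did not pass the adjusted threshold (edgeR unadjusted p = 0.0310, adjusted p = 0.351), and the DESeq2 adjusted p was 0.104.

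**Figure D2:**
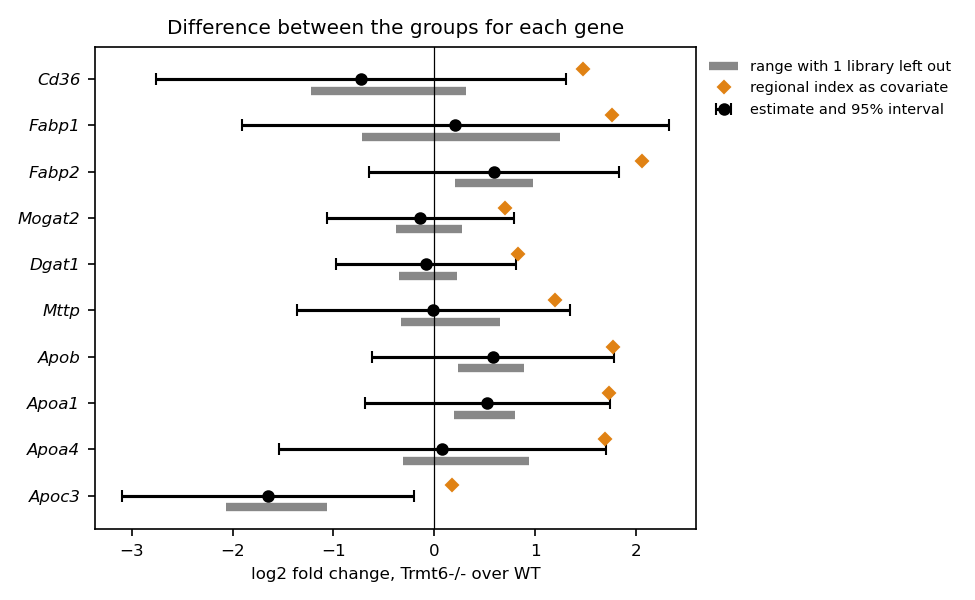
Log2 fold change of the libraries labelled Trmt6-/- over WT for each of the 10 genes, in order of role, with black bars for the 95% interval of the edgeR fit, a grey bar for the range with 1 library left out and a diamond for the fit with the position index described further on as covariate. The interval of Apoc3 runs from -3.09 to -0.20, those of the other 9 genes cross 0, and all 10 diamonds lie above 0.

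Per kilobase of exon, which allows levels to be compared between genes, Apoa1 was highest with a mean of 5486 CPM per kb in the libraries labelled Trmt6-/- and 3811 in WT, close to Fabp2 with 5377 and 3574. Fabp1 followed with 2709 CPM per kb in the libraries labelled Trmt6-/- and 2349 in WT, then Apoa4 with 974 and 923. The Apoa4 value was taken over all 1815 exon bases, of which 69.8% are shared with other genes. Its level per kilobase and its place in the order are therefore uncertain. Apob had 572 CPM per kb in the libraries labelled Trmt6-/- and 384 in WT, and Mttp 502 and 506. The lower end held Dgat1 with 267 in the libraries labelled Trmt6-/- and 283 in WT, Mogat2 with 219 and 241, Apoc3 with 72.6 and 227, and Cd36 with 19.5 and 32.1. Apoc3, between its neighbours on the chromosome, was thus far below Apoa1 per kilobase in both groups. From Apoa1 down to Mogat2, the per-library levels of each gene overlapped those of the next in the order in both groups. Mogat2 and Apoc3 overlapped in WT but not in the libraries labelled Trmt6-/-, and Cd36 lay below Apoc3 without overlap in both groups.

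KO72 was the lowest library labelled Trmt6-/- for 10 of 10 genes and WT185 the lowest WT library for 10 of 10, whereas over all genes tested these libraries were the lowest of their group in 35.7% and 39.5%. WT186 was the highest WT library for 9 of 10 genes, against 38.3% of all genes. KO73 and KO75 were each the highest for 5. Together the 10 genes held 2.04%, 3.16% and 2.79% of counts in the libraries labelled Trmt6-/-, against 1.02%, 2.87% and 2.41% in WT. Highest over lowest library ran from 2.45 (Dgat1) to 12.9 (Cd36). The median of that ratio over the 4290 genes with a mean of at least 50 CPM was 1.64 and its 90th percentile 3.38, and 8 of the 10 genes were above the latter value.

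Markers of position along the gut also differed between these libraries. Between the groups, the log2 fold changes of the 6 proximal markers were all below 0 (median -2.55). Those of the 5 ileal markers were all above 0 (median 0.98). At an edgeR unadjusted p below 0.05, 5 proximal markers were lower and 2 ileal markers higher, against 5.94% and 6.15% of all genes. None passed the adjusted threshold. Within the groups, not all markers ran in the same way. The 6 proximal markers summed to 231 to 974 CPM in the libraries labelled Trmt6-/- and 1123 to 4054 CPM in WT, and none was at 0 throughout. Lct, the lactase gene of the proximal gut, had 119, 771 and 664 CPM in the libraries labelled Trmt6-/-, against 756, 3192 and 2592 CPM in WT. The 5 ileal markers summed to 611 to 1356 CPM in the libraries labelled Trmt6-/- and 208 to 1167 CPM in WT. Fabp6, the bile acid-binding protein of the ileum, had 341, 267 and 16.7 CPM in the libraries labelled Trmt6-/-, against 543, 2.59 and 0.120 CPM in WT. KO72, the low library of its group for all 10 genes, was also lowest for 4 of 6 proximal markers and highest for 3 of 5 ileal markers. WT185, the low WT library, was lowest for 2 of 6 proximal markers (Gata4 and Lct) and highest for 3 of 5 ileal markers. Others ran differently: the iron reductase gene Cybrd1 was highest in KO72 within its group, the ileal transporter gene Slc51b was lowest there, and Cybrd1, Slc40a1, Onecut2 and Pdx1 were lowest of WT in WT187.

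An index of position (mean log2 level of Fabp6, Slc10a2 and Slc51b minus that of Gata4, Lct and Cybrd1) was 2.92, 2.12 and -0.05 in the libraries labelled Trmt6-/- and 1.21, -5.09 and -5.48 in WT. WT185 was the only WT library within the range of the other group. With WT186 and WT187 far outside it, the fit with the index extrapolates between the groups, and its estimates are uncertain. The index leaves out Slc51a, Fgf15, Slc40a1, Onecut2 and Pdx1. It includes Cybrd1, with means of only 1.43 CPM in the libraries labelled Trmt6-/- and 8.76 CPM in WT. With the index as a covariate, the log2 fold changes of all 10 genes were above 0, with a median of 1.58, from 0.18 for Apoc3 to 2.06 for Fabp2. None passed the threshold (lowest edgeR adjusted p = 0.294), and 4 had an unadjusted p below 0.05, higher, against 7.49% of all genes higher and 13.2% in either direction in the same fit. The labels do not give the segment sampled, so genotype and position in the gut cannot be told apart.

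**Figure D3:**
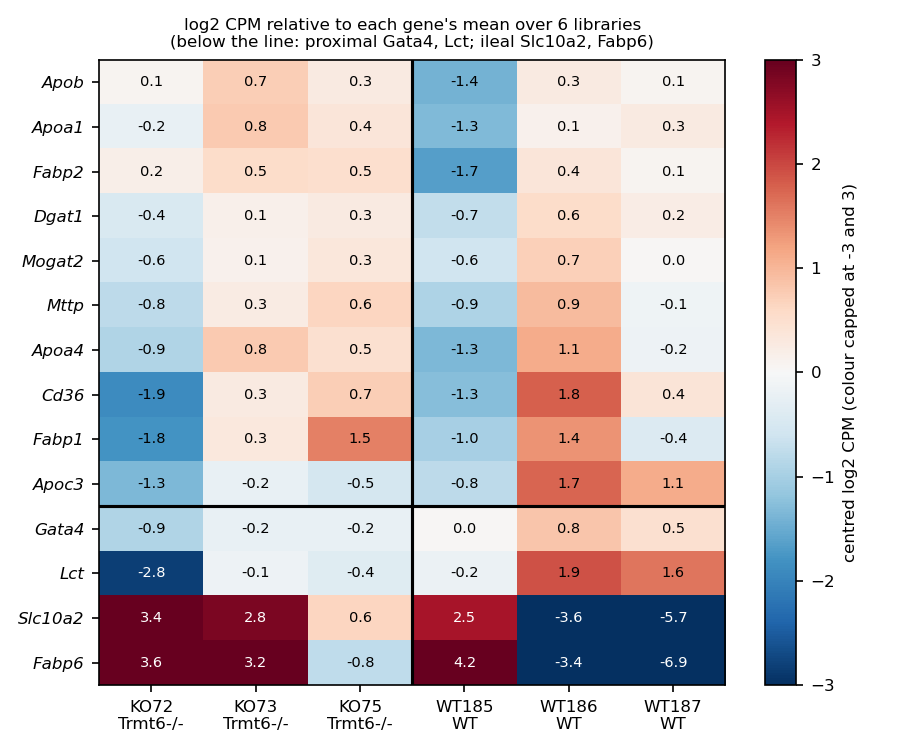
Heat map of log2 CPM relative to each gene's own mean over the 6 libraries (columns, those labelled Trmt6-/- left of WT), with the 10 genes in the upper rows and the position markers Gata4, Lct, Slc10a2 and Fabp6 below the line. All 10 genes are below their mean at WT185 and 8 of 10 at KO72, and Apoc3 is the lowest of the 10 at KO73 (-0.21) and KO75 (-0.53) and the highest at WT187.

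Markers of other cell types were also summed, and no transcript was assigned to a cell source. The 7 hepatocyte markers summed to 3.49 to 6.94 CPM in the libraries labelled Trmt6-/- and 5.21 to 9.27 CPM in WT, and the 6 adipocyte markers to 0 to 1.75 CPM and 0 to 0.104 CPM, with Lep, Cfd and Retn at 0 in every library. Endothelial markers, of cells that also make Cd36, summed to 7.17 to 13.7 CPM in the libraries labelled Trmt6-/- and 5.78 to 7.03 CPM in WT. Macrophage markers summed to 8.66 to 19.5 CPM in the libraries labelled Trmt6-/- and 6.98 to 18.5 CPM in WT. T and NK cell markers summed to 76.0 to 665 CPM in the libraries labelled Trmt6-/- and 247 to 924 CPM in WT, and their part in the results was not tested.

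The balance between the 3 clustered apolipoprotein genes was read as a ratio of counts within a library, which does not depend on library scaling. For every 1000 Apoa1 counts, Apoc3 had 9.85, 10.8 and 11.6 counts in the libraries labelled Trmt6-/-, against 31.7, 66.4 and 38.8 counts in WT. The groups did not overlap, with means of 10.8 ± 0.880 in the libraries labelled Trmt6-/- and 45.7 ± 18.3 in WT (SD, n = 3 each), a difference of -2.02 on the log2 scale. The exact two-sided permutation p was 0.1, the smallest that 3 against 3 allows, so this design cannot reach 0.05. The ratio was chosen after its values were seen, and 9.54% of all genes were lower relative to Apoa1 without overlap (10.3% in either direction). Leaving out each library in turn gave -2.24 to -1.71.

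Apoa4 per 1000 Apoa1 counts was 169, 277 and 299.8 in the libraries labelled Trmt6-/-, against 273, 553 and 205 in WT, and these overlapped. Apob per 1000 Apoa1 counts was 1418, 1128 and 1079 in the libraries labelled Trmt6-/-, against 1102, 1284 and 1013 in WT, and these overlapped as well. Of the 9 genes set against Apoa1, Dgat1 was the other without overlap, at 129.6, 97.8 and 144 in the libraries labelled Trmt6-/- and 230.2, 206 and 147 in WT. Across all 45 pairs of the 10 genes, 12 had groups without overlap, and 7 of these held Apoc3, which is in 9 of the pairs. The pairs reuse the same genes and libraries, so they are not separate observations. The share over all pairs of genes in the table was not computed, so the count has no background. The lowest exact permutation p adjusted over the 45 pairs was 0.375. Relative to Apoc3 itself, 15.1% of all genes were higher without overlap.

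**Figure D4:**
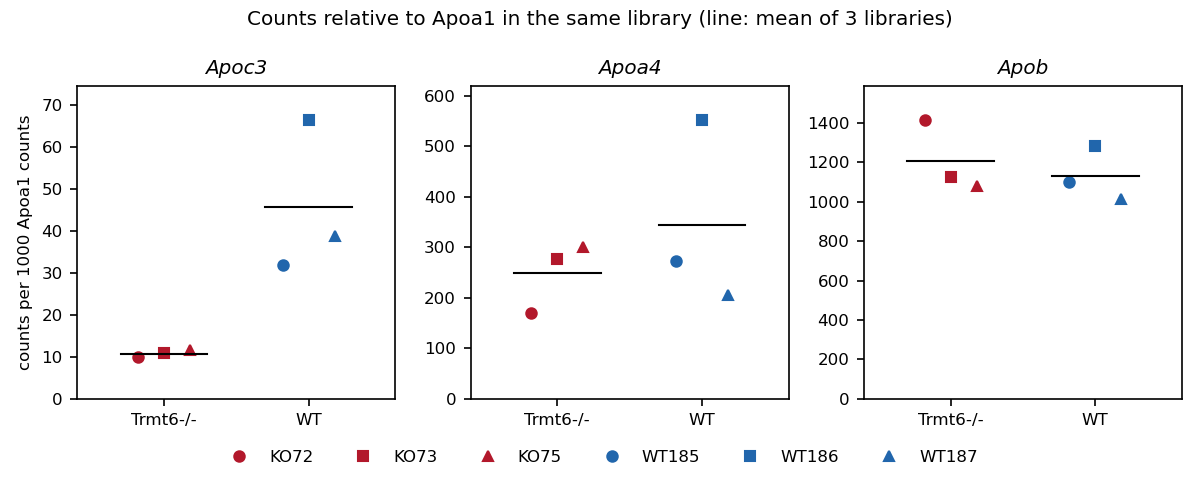
Counts of Apoc3, Apoa4 and Apob per 1000 Apoa1 counts (y axis, from 0), with 1 symbol a library and a line at each group mean, the libraries labelled Trmt6-/- left of WT. Apoc3 lies at 9.85 to 11.6 in the libraries labelled Trmt6-/- and 31.7 to 66.4 in WT, and the groups overlap for Apoa4 and Apob.

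Likeness was measured as the root mean square distance between log2 CPM profiles, each centred on its own mean, over the 6 libraries. Within the 10 genes, the closest pairs were Mogat2 with Dgat1 (0.14), Apob with Apoa1 (0.16) and Fabp2 with Apob (0.17). Apoc3 had the most distant nearest member of the 10, Cd36 at 0.70, and its chromosome neighbour Apoa1 lay at 1.06. Outside the 10, the nearest genes were Cideb and Slc41a2 for Mogat2, Slc25a36 and Acbd4 for Dgat1, Paqr7 and Tmem263 for Mttp, and Gramd1b and Arl4d for Apoa1. For Apob they were Vegfa and Myzap, for Fabp2 Gk and Vegfa, for Apoa4 Pxdc1 and Sphk1, and for Apoc3 Gm11127 and Gm10425. Prrx1 and Hsd17b6 were nearest to both Cd36 and Fabp1. Distances to these nearest genes were 0.06 to 0.40, against medians over all genes of 0.52 to 1.25. The nearest genes are the smallest of many distances over only 6 libraries, so they lie below the median by construction. No relation between the genes follows from this.

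The rest of the pathway was read from 6 lists, and no gene on any of them passed the adjusted threshold in edgeR. At an unadjusted p below 0.05, 6.15% of all genes were higher and 5.94% lower, and these shares stand behind the counts that follow. Among 12 other uptake and activation genes, 0 were higher and 2 lower, with a median log2 fold change of -0.22. Scarb1, a receptor for high-density lipoprotein and lipids, was at -3.59 and Slc27a2, an acyl-CoA synthetase, at -1.19. The 2 most abundant, Rbp2, which binds retinol, and Acsl5, another acyl-CoA synthetase, were at -0.08 and -0.26. Of 12 tested among 14 other resynthesis genes, 0 were higher and 2 lower, with a median of -0.08. These were Agpat3 at -1.07 and Agpat1 at -0.60, acyltransferases of the glycerol phosphate route, while Lpcat3, which remodels phospholipid, was at 0.59 and Dgat2 at 0.23.

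Of 22 tested among 25 genes of chylomicron assembly and export, 1 was higher and 1 lower, with a median of -0.01. Apoa2, an apolipoprotein of high-density lipoprotein, was at -1.87, with 0.169, 0.279 and 0.712 CPM in the libraries labelled Trmt6-/-, against 0.990, 2.11 and 1.14 CPM in WT. At this low level it moved to -2.62 without KO75 and to -1.14 with the position index. P4hb, the partner subunit of Mttp, was at 0.33 and Sec31a, a coat protein of export vesicles, at -0.05. Of 19 tested among 21 lipid droplet and lipolysis genes, 2 were higher and 1 lower, with a median of -0.07. The carboxylesterase Ces1d was at -3.36 and the monoacylglycerol lipase Mgll at 1.61, while Ces2e was at 0.16 and the droplet coat gene Plin3 at -0.19. Of 6 sterol genes, 0 were higher and 0 lower, with a median of -0.37. Abcg5, a subunit of a sterol exporter, was at -0.65 and the cholesterol acyltransferase Soat1 at -0.77, with the sterol importer Npc1l1 at 0.01 and Soat2 at 0.19.

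Of 24 transcription factors of the enterocyte lipid programme, 2 were higher and 4 lower at an unadjusted p below 0.05, with a median of -0.18. Nr1h4, the bile acid receptor, was at 1.18 and the coactivator Ppargc1b at -0.68. Hnf4a was at 0.26 and Creb3l3, a membrane-bound factor that in mouse drives apolipoprotein genes, at 0.81, which became 1.44 without WT186 and 2.5 with the position index. DESeq2 called 4.49% of all genes and 5 of the 35 genes refitted. These were Scarb1 (DESeq2 adjusted p = 0.00709), Ces1d (2.98e-06), Mgll (0.0132), Nr1h4 (0.00757) and Ppargc1b (0.0173). All 5 had been named for a small edgeR p on the same counts, so these calls are not independent of that choice. Ces1d was also called by edgeR with no filter on low counts (adjusted p = 0.0104). Scarb1 had 1.35, 1.68 and 1.92 CPM in the libraries labelled Trmt6-/-, against 6.67, 51.0 and 2.34 CPM in WT, and its log2 fold change was -1.44 without WT186 and -2.06 with the position index. Ces1d had 2.03, 3.84 and 2.56 CPM in the libraries labelled Trmt6-/-, against 13.4, 54.6 and 18.8 CPM in WT, and its log2 fold change was -2.5 without WT186 and -2.31 with the position index. Nr1h4 had 139, 125 and 123 CPM in the libraries labelled Trmt6-/-, against 81.3, 49.2 and 41.0 CPM in WT. Its log2 fold change of 1.18 became 0.66 with the position index. The groups did not overlap in any of these 3, which had been named for a small p, and 18.7% of all genes had groups without overlap. In the regular edgeR fit the adjusted p of these 5 ran from 0.140 (Ces1d) to 0.281 (Scarb1).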

How the data were processed

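Raw counts for each gene were deposited by the authors, per the file headers from featureCounts 2.0.1 on paired reads with GENCODE M23. The deposited gene length column, written by featureCounts, was used only for levels per kilobase. Per the submitters' processing notes, fastp and HISAT2 were used with mm10; their versions are not given in the sources used here. The header holds no strand or overlap option. Column names carry a group and an animal number, so the 6 columns were assigned to groups only, and 0 columns were left unused. GENCODE M21, of the same assembly, gave symbols for 55154 of 55335 genes.

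After filterByExpr and TMM scaling, the two-sided quasi-likelihood F test of edgeR 4.0.16 (R 4.3.3) was run, genotype as only term, Benjamini-Hochberg over 14107 genes, threshold 0.05. The biological coefficient of variation was 0.345. Alternatives used DESeq2 1.42.0, limma 3.58.1, other scalings and filters, a position covariate and each library left out. The fits were tested on simulated data. SE is the log2 fold change over the square root of F. Likeness used a prior count of 2 and genes of mean 5 CPM or more. The libraries held no duplicates (within-group chi-square per degree of freedom 49.4 to 207). Libraries were amplified without molecular identifiers, and the edgeR p-values set the difference between the groups against the spread between these libraries.

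The genes and lists were chosen with earlier results of these data known. Named were the 10 genes, Trmt6, from each list the 2 genes with the smallest p and the 2 with the highest mean CPM, the 2 genes nearest to each of the 10 in profile, and position markers. A gene that this rule names is not reported here. Genes named for overlaps, and the ratio to Apoa1, were chosen after their values were seen.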

Additional observations from a re-analysis of the deposited data

How the results depend on the processing

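The 10 genes had 0 past the threshold under every alternative run. The count of genes called over the whole table, 6 here, was 0 with library totals, 1 with epithelial reference genes as library size, 159 with no low-count filter, 633 with DESeq2, 0 with limma-voom, 0 with the position index as covariate and 0 to 6 with 1 library left out. The median log2 fold change of the 10 genes was 1.58 with the position index and -0.32 to 0.68 with 1 library left out. Scaling to epithelial genes moved the median of all genes to -0.22. Signs turned for Mttp under upper-quartile scaling (0.022), no filter (7.1e-04) and limma-voom (0.070), for Rbp2 under limma-voom (0.024), and for Npc1l1 under library totals (-0.035). With epithelial scaling they turned for Apoa4 (-0.18), Ces2e (-0.062), Npc1l1 (-0.24) and Soat2 (-0.0051). With the position index they turned for Cd36 (1.47), Mogat2 (0.70), Dgat1 (0.83), Mttp (1.19), Apoc3 (0.18), Rbp2 (1.28), Acsl5 (0.89), Sec31a (0.44), Plin3 (0.46) and Abcg5 (0.28). With no turn of sign, the index moved Fabp1 to 1.76, Fabp2 to 2.06, Apob to 1.76, Apoa1 to 1.73, Apoa4 to 1.69, Agpat3 to -0.48, Dgat2 to 1.04, P4hb to 1.02, Ces2e to 1.02, Npc1l1 to 0.99, Soat2 to 1.5 and Soat1 to -1.71, and limma-voom put Scarb1 at -2.41. The index also moved Nr1h4 from 1.18 to 0.66 and Trmt6 from 0.60 to 0.26. The cause was not tested. With 1 library left out, sign changes fell within -1.22 to 0.31 for Cd36, -0.72 to 1.25 for Fabp1, -0.38 to 0.28 for Mogat2, -0.35 to 0.22 for Dgat1, -0.33 to 0.65 for Mttp, -0.32 to 0.94 for Apoa4, -0.54 to 0.76 for Rbp2, -0.58 to 0.34 for Acsl5, -0.0045 to 0.69 for Dgat2, -0.21 to 0.22 for Sec31a, -0.10 to 0.66 for Ces2e, -0.41 to 0.19 for Plin3, -0.30 to 0.25 for Npc1l1 and -0.15 to 0.47 for Soat2. Apoc3 stayed at -2.07 to -1.06, Fabp2 at 0.21 to 0.98, Apob at 0.24 to 0.89 and Apoa1 at 0.19 to 0.80. Of the 35 genes refitted (the 10 genes, Trmt6 and 24 list genes), 19 kept their sign in all fits. No paired analysis was possible because the library columns carry animal numbers and no replicate numbers. With 3 libraries a group, the spread between libraries and not the depth sets the width of the intervals.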
